A study of Mus musculus with 6 samples.

Results

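Secreted innate defense and acute phase genes, which encode proteins that epithelium and liver release against microbes and tissue damage, were described by 10 members: Lcn2, Ltf, Saa1, Saa2, Saa3, Hp, Cd14, Lbp, C3 and Pigr. They were taken by gene symbol from a table of 24308 rows. All 10 of the 10 were found, each on a single row that names no other gene, and no other row overlaps any of them. The series labels 3 tumors of PyMT mice (control) and 3 of PyMT Elp3 cKO mice, in which by the labels MMTV-Cre removes Elp3, the catalytic subunit of the tRNA-modifying Elongator complex. All were FVBN females of 7 weeks carrying the polyoma middle T oncogene, with tumors matched for size and 3 different mice per label. MMTV drives Cre in mammary epithelium, and the RNA came from epithelial cells that a kit had enriched from dissociated tumors.

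The deposited columns cannot be compared by genotype. In each of the 3 replicate numbers the Elp3 cKO column repeats the control column, with 0 of 24308 rows differing, so the 6 labelled samples give 3 distinct profiles, named 1, 2 and 3 by replicate number. Which genotype each profile belongs to is not known from the table, no profile is assigned to one, and no test was made. Elp3 itself stood at 15.6, 17.9 and 19.0 FPKM (sequenced fragments divided by transcript length and by library size) in profiles 1, 2 and 3. With 1 profile per number there is no replicate error, so a difference between profiles is set beside the same difference over all protein coding genes. That background is 19293 protein coding symbols, of which 10447 had a mean of 1 FPKM or more. FPKM is a level per transcript length, so levels of different genes can be set side by side.

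These proteins act in blood and at epithelial surfaces. Lipocalin 2 and lactoferrin withhold iron from bacteria. Serum amyloid A proteins and haptoglobin belong to the acute phase response, in which cytokines such as IL-6 and IL-1 switch on secreted defense proteins through STAT3, NF-kB and C/EBP factors, in liver above all but also in epithelium. LBP and CD14 hand bacterial lipopolysaccharide to the receptor TLR4, complement C3 tags surfaces for removal, and the polymeric immunoglobulin receptor carries IgA across the epithelium. In the mammary gland many of them are products of luminal progenitor and alveolar cells, are secreted into milk, and are turned on in mastitis and involution.

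All 10 genes had a mean of 1 FPKM or more, a level held by 54.1% of protein coding symbols. All but Pigr, 9 of 10, reached a mean of 10 FPKM, against 31.6% of protein coding symbols. Lcn2, Ltf, Saa1 and Saa2 reached a mean of 100 FPKM, 4 of 10 against 3.84%. Profiles 1, 2 and 3 had medians over the 10 genes of 40.6, 43.9 and 78.3 FPKM. Over the 10447 protein coding genes the medians were 12.7, 12.9 and 13.3. The span of each of the 10 genes, the highest minus the lowest log2(FPKM + 1) over the 3 profiles, was 1 or more for 9 of the 10, Lcn2 being the exception. The same span was reached by 3.41% of protein coding genes. The median span was 1.34 for the 10 genes and 0.27 for protein coding genes. Cd14 and Lbp passed this mark by little, both with a span of 1.02. The count depends on profiles 1 and 3, being 3 without profile 1 and 4 without profile 3, where fewer profiles can only narrow a span. The genes were chosen with earlier results of these data known, so these counts describe them and support nothing further.

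**Figure D1:**
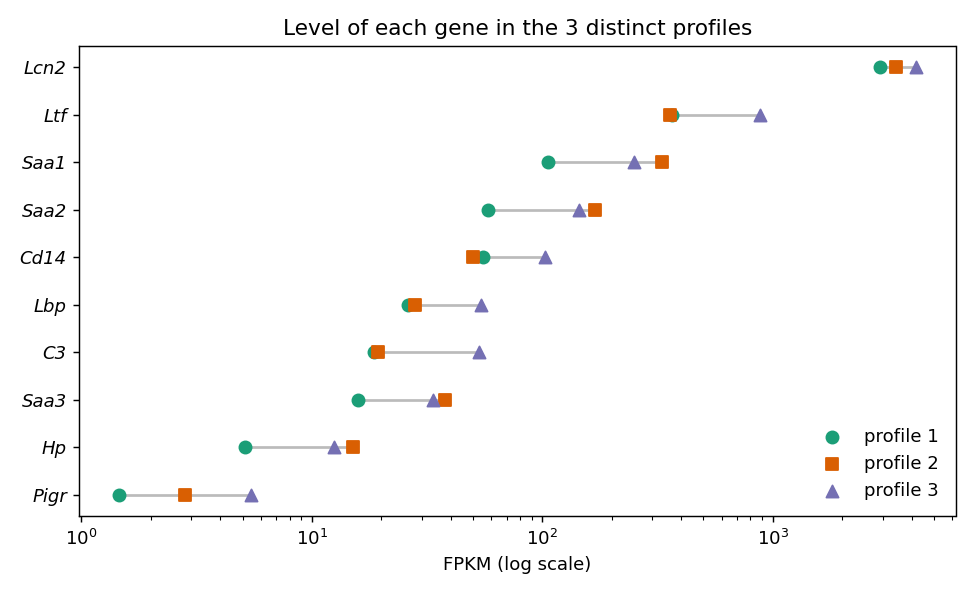
FPKM (x axis, log scale) of each of the 10 genes (y axis, by falling mean) in the 3 distinct profiles, each a point, with a line from the lowest to the highest. Lcn2 lies between 2913 and 4169 FPKM and Pigr between 1.46 and 5.43, and no gene is highest in profile 1.

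Lcn2 encodes lipocalin 2, which binds the iron-carrying siderophores of bacteria. Among the 19293 protein coding symbols on rows naming a single gene, it ranked 8th by FPKM in profile 1 and 7th in profiles 2 and 3. Rows naming several genes were not ranked. The row shared by Bax and Ftl1 lay above Lcn2 in all 3 profiles, at 4303, 5647 and 4343 FPKM. The Lcn2 row, at chromosome 2, 32384634 to 32389283 (mm10), read 2913, 3439 and 4169 FPKM in profiles 1, 2 and 3. Lcn2 was thus lowest in profile 1 and highest in profile 3, by 1.43-fold, the narrowest range of the 10. It made up 81.7%, 77.2% and 73.1% of the summed FPKM of the 10 genes. Of all FPKM in the table it held 0.468%, 0.540% and 0.671%.

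Ltf encodes lactoferrin, an iron-binding protein of milk, tears and saliva that is also stored in neutrophil granules. Its row lies at chromosome 9, 111019122 to 111046081. Ltf stood at 367, 359 and 879 FPKM in profiles 1, 2 and 3. Profiles 1 and 2 were close and profile 3 was high, 2.45 times profile 2. Trf, the transferrin that mouse mammary epithelium also secretes, stood at 565, 653 and 949 FPKM, so the ratio of Ltf to Trf ran from 0.550 in profile 2 to 0.927 in profile 3. Lcn2 over Ltf was 7.94, 9.57 and 4.74, so the iron-withholding genes did not keep 1 ratio across profiles.

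Saa1, Saa2 and Saa3 encode serum amyloid A proteins, small apolipoproteins of the acute phase. In mice the first and second are the main forms made by liver, and Saa3 is the form made mostly outside it. They lie together on chromosome 7 in the order Saa3 (46711998 to 46715676), Saa4, Saa1 (46740496 to 46743083) and Saa2 (46751719 to 46754317). Saa1 and Saa2 are read away from each other, and their RefSeq starts are 8.85 kb apart. The first 120 coding bases of GENCODE M21 transcripts (GRCm38), 5′ to 3′, are shown because the level of each depends on telling near-identical copies apart. Capitals mark bases that differ from Saa1 at the same position, 5 in Saa2 and 48 in Saa3.
Saa1: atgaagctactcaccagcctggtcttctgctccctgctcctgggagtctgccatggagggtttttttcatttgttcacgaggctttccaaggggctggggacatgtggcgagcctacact
Saa2: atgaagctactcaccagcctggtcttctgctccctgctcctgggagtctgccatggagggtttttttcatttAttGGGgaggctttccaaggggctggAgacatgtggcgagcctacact
Saa3: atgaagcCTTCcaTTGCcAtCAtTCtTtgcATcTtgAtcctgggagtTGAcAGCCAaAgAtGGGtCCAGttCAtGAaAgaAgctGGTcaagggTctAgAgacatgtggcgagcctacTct

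Over the whole coding sequence of 369 bases, Saa1 and Saa2 were identical at 95.1% of aligned positions, and Saa1 and Saa3 at 76.1%. No stretch of 100 bases, the read length in the labels, is shared exactly between the Saa1 and Saa2 transcripts (0 of 510). In 24 of 510 aligned stretches they differ at 2 or fewer positions, so few bases tell reads there apart. Whether any read was given to the wrong gene was not tested, and how the authors divided reads was not stated. For Saa1 and Saa3 no aligned stretch was that close (0 of 544).

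Saa1 stood at 106, 332 and 250 FPKM in profiles 1, 2 and 3. Saa2 stood at 58.0, 170 and 144 FPKM. Saa3 stood at 15.8, 37.9 and 33.4 FPKM. All 3 had the same order, with profile 2 highest, profile 3 next and profile 1 lowest. The highest value was 3.14 times the lowest for Saa1, 2.93 times for Saa2 and 2.40 times for Saa3. Their proportions moved little. Saa1 over Saa2 was 1.83, 1.95 and 1.73, and Saa1 over Saa3 was 6.71, 8.77 and 7.48. Saa4, the constitutive member that sits between Saa3 and Saa1, was listed at 0 in all 3 profiles. Of the genes beside the cluster, Tph1, an enzyme of serotonin synthesis beyond Saal1 on the Saa3 side, had the same order, at 0.656, 3.31 and 3.06 FPKM. Saal1, Gtf2h1 and Hps5 did not. Saal1, next to Saa3, stood at 3.01, 2.86 and 2.82 FPKM. Gtf2h1, a transcription factor subunit on the Saa2 side, stood at 40.6, 38.4 and 33.3 FPKM, highest in profile 1. Hps5, which overlaps it, stood at 5.47, 6.30 and 4.30 FPKM.

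**Figure D2:**
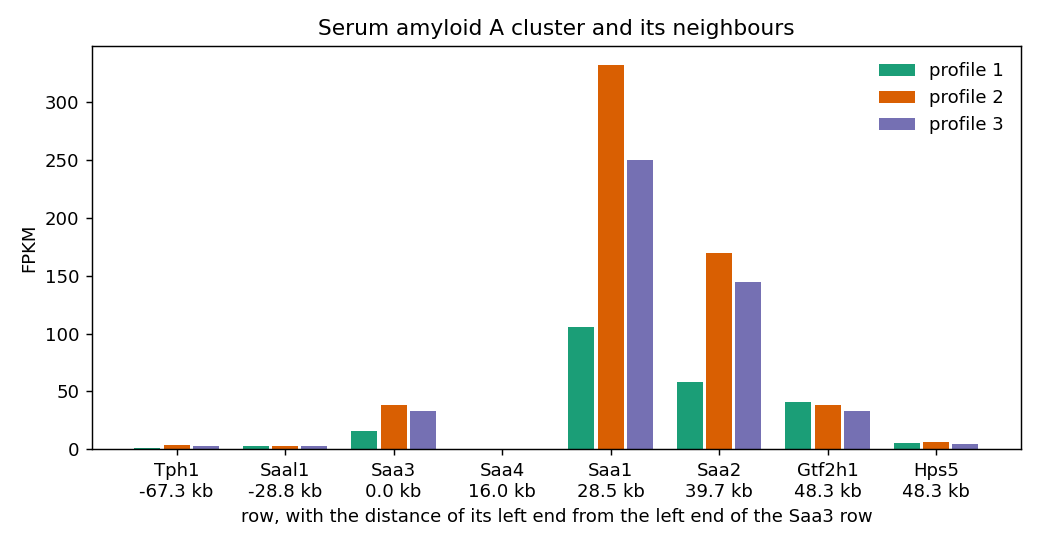
FPKM (y axis, from 0) of the serum amyloid A rows and their neighbours on chromosome 7 (x axis, in order, with the distance in kb of each left end from that of Saa3), with a bar per profile. Saa3, Saa1 and Saa2 are each lowest in profile 1 and highest in profile 2, as is the far lower Tph1, Saa4 is at 0, and Gtf2h1 is highest in profile 1.

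Hp encodes haptoglobin, which binds free hemoglobin. Its row lies at chromosome 8, 109575128 to 109579172. Hp stood at 5.15, 15.1 and 12.4 FPKM, with the order of the serum amyloid A genes and a 2.94-fold range. Saa1 over Hp was 20.6, 22.0 and 20.1, the steadiest of the 11 ratios computed. These ratios do not cover all pairs of the 10 genes, and how steady ratios of other gene pairs are was not computed. The order profile 2 over 3 over 1 was held by 4 of the 10 genes, the 3 Saa genes and Hp, and by 16.2% of the protein coding genes. Between profiles 1 and 2, these 4 and none of the other 6 differed by 1 or more on log2(FPKM + 1), as did 1.15% of protein coding genes.

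Cd14, the lipopolysaccharide co-receptor, occurs on cell surfaces and in soluble form, also in milk. Cd14 stood at 55.2, 49.9 and 102 FPKM in profiles 1, 2 and 3. Lbp encodes the plasma protein that delivers lipopolysaccharide to CD14, with its row at chromosome 2, 158306493 to 158332852. Lbp stood at 26.1, 28.1 and 54.0 FPKM. Both were high in profile 3 only, 2.05 times profile 2 for Cd14 and 2.07 times profile 1 for Lbp. Cd14 over Lbp was 2.12, 1.77 and 1.90.

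C3 encodes the central complement component, at chromosome 17, 57203973 to 57228136. C3 stood at 18.6, 19.4 and 53.3 FPKM in profiles 1, 2 and 3, so profiles 1 and 2 were close and profile 3 was 2.86 times profile 1. Pigr, at chromosome 1, 130826684 to 130852249, was the least abundant of the 10 at 1.46, 2.81 and 5.43 FPKM. Pigr was lowest in profile 1 and highest in profile 3, with the widest range of the 10, 3.72-fold. Of the 10 genes, 6 (Lcn2, Ltf, Cd14, Lbp, C3 and Pigr) were highest in profile 3, against 36.9% of protein coding genes, and 4 were highest in profile 2, against 28.2%. With profile 2 left out, all 10 were higher in profile 3 than in profile 1. Among protein coding genes, 3 orders place profile 3 over profile 1. These were 3 over 2 over 1 (24.2%), 2 over 3 over 1 (16.2%) and 3 over 1 over 2 (12.7%). None was highest in profile 1, where 34.9% of protein coding genes were. Of the 10, 8 were lowest in profile 1, against 40.4%, 2 in profile 2 (Ltf and Cd14), against 28.5%, and none in profile 3, against 31.1%. Between profiles 2 and 3, Ltf, Cd14 and C3 differed by 1 or more on log2(FPKM + 1), 3 of 10 against 1.55%. Between profiles 1 and 3, 8 of 10 did, all but Lcn2 and Cd14, against 2.46%.

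**Figure D3:**
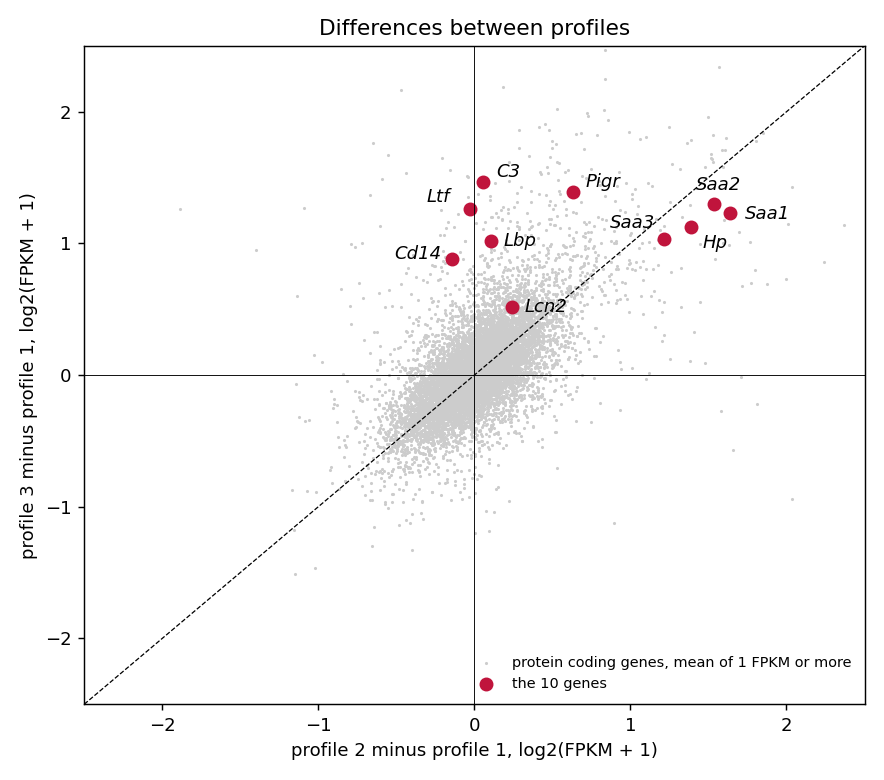
Difference of profile 2 from profile 1 (x axis) and of profile 3 from profile 1 (y axis), both on log2(FPKM + 1), for the 10 genes (red) and for protein coding genes at a mean FPKM of 1 or above (grey, 15 of 10447 outside the axes). Saa1, Saa2, Saa3 and Hp lie right of the dashed line of equal difference, and Ltf, Cd14, Lbp and C3 lie near 0 on the x axis and high on the y axis.

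The promoters of the 3 Saa genes, highest in profile 2, and of Lcn2 and Ltf, highest in profile 3, are shown. They were chosen with these values known, and no link of sequence to the order of profiles was tested. Sequences are the 250 bases before the RefSeq start (GRCm38.p6), 5′ to 3′ on the gene's strand. Capitals mark matches to TTGCNNAA or its reverse TTNNGCAA, a core of the sites that C/EBP factors bind. The Lcn2 window lies inside the deposited row, which reaches further upstream. The windows of Saa1, Saa2 and Ltf overlap their deposited rows in part, and that of Saa3 does not.
Saa1, chr7:46742981-46743230, minus strand: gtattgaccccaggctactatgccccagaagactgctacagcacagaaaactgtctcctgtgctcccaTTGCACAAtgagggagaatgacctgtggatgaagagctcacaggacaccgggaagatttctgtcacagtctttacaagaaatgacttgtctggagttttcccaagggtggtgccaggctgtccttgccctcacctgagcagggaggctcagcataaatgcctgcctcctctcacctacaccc
Saa2, chr7:46751583-46751832, plus strand: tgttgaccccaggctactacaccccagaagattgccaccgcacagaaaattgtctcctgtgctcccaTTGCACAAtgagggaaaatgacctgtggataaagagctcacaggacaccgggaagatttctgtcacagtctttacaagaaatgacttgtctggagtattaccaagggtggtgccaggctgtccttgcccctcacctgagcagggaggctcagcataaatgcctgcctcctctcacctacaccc
Saa3, chr7:46715677-46715926, minus strand: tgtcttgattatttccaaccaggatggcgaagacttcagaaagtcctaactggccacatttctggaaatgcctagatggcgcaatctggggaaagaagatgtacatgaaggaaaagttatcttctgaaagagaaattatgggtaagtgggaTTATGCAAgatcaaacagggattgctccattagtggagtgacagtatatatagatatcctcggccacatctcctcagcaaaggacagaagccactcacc
Lcn2, chr2:32387740-32387989, minus strand: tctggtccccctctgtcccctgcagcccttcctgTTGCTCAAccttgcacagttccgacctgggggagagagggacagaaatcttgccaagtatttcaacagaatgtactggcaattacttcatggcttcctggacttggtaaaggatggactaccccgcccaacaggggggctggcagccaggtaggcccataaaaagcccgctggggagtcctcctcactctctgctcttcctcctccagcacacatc
Ltf, chr9:111019042-111019291, plus strand: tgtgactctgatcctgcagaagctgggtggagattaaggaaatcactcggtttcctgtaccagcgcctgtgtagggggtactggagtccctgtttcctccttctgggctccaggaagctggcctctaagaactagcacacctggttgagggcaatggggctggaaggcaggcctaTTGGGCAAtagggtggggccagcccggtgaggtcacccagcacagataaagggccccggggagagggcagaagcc

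RefSeq promoters were at hand for 7 of the 10 genes, those shown and those of Pigr and C3. A match to TTGCNNAA on either strand stood in 6 of these 7, all but Pigr, against 9.56% of 32851 promoters of the same length. In Saa1 it began 182 bases before the start and in Saa2 183 bases before it, with the same letters, and these windows were identical at 94.8% of aligned positions. The Saa3 window was identical to that of Saa1 at 48.5% of aligned positions. Its match began 99 bases before the start. The matches in Lcn2 and Ltf began 216 and 75 bases before the start. The NF-kB consensus, the STAT motif TTCCNGGAA and TATAAA were searched in the same way. They matched in 0 of the 7 and in 7.25%, 0.913% and 12.4% of all promoters. A match is a string of letters and no evidence of binding, and a missing match says only that these letters are not in the window.

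The receptor chain that CD14 and LBP serve was measured beside them. Beside Cd14 and Lbp it was listed with 16 genes, of which 15 had a row of their own and 13 a mean of 1 FPKM or more. None of the 13 had a span of 1 or more, which 3.41% of protein coding genes had, so the count is near the background. Tlr4, the lipopolysaccharide receptor, stood at 8.57, 6.79 and 9.57 FPKM. Myd88, its adaptor, stood at 17.4, 17.9 and 20.8 FPKM. The 4 with the highest means were Tollip, Irak1, Myd88 and Irak2. Tollip, a dampener of the chain, read 47.1, 43.9 and 41.8 FPKM, and the kinase Irak1 read 35.3, 40.8 and 31.4. Irak2, another of these kinases, read 12.1, 12.8 and 13.0 FPKM. Ly96, the partner of TLR4, shares its row with Tmem70, which stood at 33.8, 26.7 and 28.3 FPKM. Cd14 was therefore several times as abundant as Tlr4 in every profile, on a scale per length.

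Complement components with a row of their own were low, apart from C3. Of 17 listed components with a row of their own, 2 had a mean of 1 FPKM or more, a level held by 54.1% of protein coding symbols. These were C1s at 1.64, 5.29 and 5.57 FPKM and C1ra at 1.49, 2.48 and 3.92 FPKM, the proteases of the classical pathway. The next were C1qb, at 0.724, 0.0652 and 0.892 FPKM, and C1qa, at 0.418, 0.382 and 0.599. Listed at 0 in all profiles were 5 components, C6, C8a, C8b, Mbl1 and Mbl2. Factor B, which joins C3b to form the convertase, shares a row with C2, and that row stood at 16.3, 28.4 and 41.1 FPKM. C4a and C4b share a row at 3.38, 5.56 and 7.43 FPKM. Cfp shares its row with Elk1 and Uxt, at 17.8, 17.1 and 17.2 FPKM. The part of each gene in a shared row is not known. Regulators were more abundant. Clu, clusterin, stood at 208, 317 and 349 FPKM. Cr1l, the rodent inhibitor of C3 convertases, stood at 35.1, 34.2 and 29.3 FPKM, and Cd55, which speeds their decay, at 14.5, 17.2 and 17.3 FPKM. Serping1, the C1 inhibitor, stood at 10.2, 26.0 and 33.2 FPKM. The C3a receptor gene C3ar1 was at 0.450, 0.0833 and 0.286 FPKM.

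Other secreted defense genes had the order of Lcn2 or Ltf. Of 20 with a row of their own, 11 had a mean of 1 FPKM or more, and all 11 were highest in profile 3, where 36.9% of protein coding genes were highest. Of these, 5 of 11 had a span of 1 or more, against 3.41% of protein coding genes (S100a8, Ptx3, Sftpd and, by little, Slpi and Wfdc2). Slpi, a leukocyte protease inhibitor of mucosal fluids, stood at 304, 535 and 610 FPKM. Mfge8, a milk fat globule protein, stood at 230, 178 and 341 FPKM, and Wfdc2, a whey acidic protein relative, at 81.9, 128 and 170. S100a8, a calprotectin subunit, stood at 43.6, 71.6 and 98.8 FPKM, but its partner S100a9 was at 0.125, 0.189 and 0.640.

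Other acute phase genes did not all peak in the same profile. Of 18 with a row of their own, 7 had a mean of 1 FPKM or more, of which 3 were highest in profile 3, 3 in the second profile and 1 in the first. The matching shares of protein coding genes were 36.9%, 28.2% and 34.9%. With only 7 genes, no departure from these shares is claimed. The metallothioneins Mt1 and Mt2 were even, with medians of 540 FPKM (538 to 582) and 447 FPKM (426 to 449). Cp, the copper ferroxidase ceruloplasmin, stood at 52.6, 70.2 and 118 FPKM. Lrg1, a leucine-rich glycoprotein, stood at 13.1, 14.9 and 18.2 FPKM. The orosomucoids Orm1 and Orm2 and the fibrinogen chain Fgg were highest in profile 2, as were the Saa genes and Hp. For Fgg this was by little, at 0.745, 2.09 and 2.05 FPKM. Orm1 stood at 1.75, 8.54 and 3.76 FPKM. Orm2 stood at 2.96, 12.9 and 2.40 FPKM, lowest in profile 3, so it did not have the full order of the Saa genes. Apcs, serum amyloid P, Fga and Orm3 were listed at 0 in all 3 profiles, with Saa4. Apcs, Fga, Orm3, Orm1, Orm2 and Fgg were named after their values were seen.

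**Figure D4:**
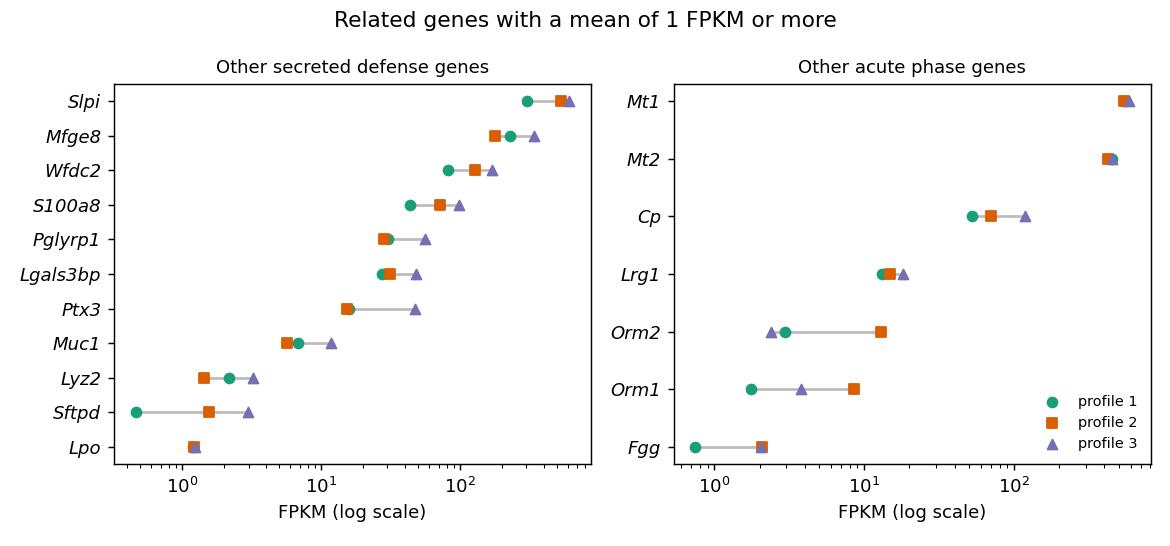
FPKM (x axis, log scale) of other secreted defense genes (left) and other acute phase genes (right) with a mean of 1 FPKM or more, a point per profile. All 11 genes on the left are highest in profile 3, and Orm1, Orm2 and, by little, Fgg on the right are highest in profile 2.

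Signals that switch these genes on were listed as a further set. Of 30 listed genes of cytokine signaling and its factors with a row of their own, 28 had a mean of 1 FPKM or more and 2 of them, Il6 and Tnfrsf1b, a span of 1 or more, against 3.41% of protein coding genes. The 4 with the highest means were Cebpb, Stat3, Cebpd and Rela. Cebpb stood at 200, 136 and 184 FPKM. Stat3 stood at 63.7, 88.0 and 96.9 FPKM. Cebpd had a median of 81.7 FPKM (78.9 to 85.2) and Rela, an NF-kB subunit, 66.9 (64.2 to 78.5). Il6 itself stood at 5.13, 8.30 and 17.1 FPKM, and Tnfrsf1b, a tumor necrosis factor receptor, at 6.24, 6.84 and 15.6.

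Genes of iron handling and the receptors of these proteins completed the setting. Of 15 iron genes with a row of their own, 13 had a mean of 1 FPKM or more and 1, Cp, a span of 1 or more, against 3.41% of protein coding genes. Fth1, ferritin heavy chain, stood at 3223, 5506 and 6159 FPKM, and near-identical copies elsewhere in the genome make its level uncertain. Hmox1, which breaks down heme, stood at 867, 1626 and 1513 FPKM. Tfrc, the transferrin receptor, had a median of 50.7 FPKM (50.3 to 57.9). Slc22a17, reported as a lipocalin 2 receptor, stood at 7.78, 9.30 and 5.87 FPKM. Lrp2, another receptor for lipocalin 2 and lactoferrin, was at 0, 0 and 0.00642 FPKM. Cd163, the macrophage receptor for haptoglobin bound to hemoglobin, was at 0.0302, 0.0135 and 0.104. Scarb1, which binds serum amyloid A, had a median of 68.2 FPKM (56.7 to 73.6). Tlr2, also reported to bind it, stood at 14.7, 10.1 and 11.1 FPKM. Lrp1, an endocytic receptor for lactoferrin, stood at 3.94, 9.70 and 12.6 FPKM. The J chain gene, listed as Igj, whose product PIGR binds, was at 0, 0.0596 and 0 FPKM.

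Several of the 10 genes are also made by other cells, so marker lists were read beside them. Epithelial markers summed to 9849, 10352 and 10541 FPKM in profiles 1, 2 and 3, with all 8 at 1 FPKM or more. Neutrophil markers other than Ltf summed to 44.0, 72.0 and 99.7 FPKM, nearly all of it S100a8. Camp and Retnlg were at 0 in all profiles, and Mpo, Elane and Ngp at or under 0.103 FPKM. Macrophage markers summed to 4.15, 3.36 and 6.13 FPKM, highest in profile 3 and led by Lyz2 at 2.17, 1.44 and 3.25 FPKM, with Ptprc at or under 0.0969 FPKM. Cd68 shares its row with Eif4a1 and is not in that sum. Hepatocyte markers summed to 0.0728, 1.48 and 1.41 FPKM, with Alb at 0, 0.0308 and 0 FPKM and Ttr, Serpina1a and Tat at 0. That sum had the order of the Saa genes and Hp, at a small part of their levels. Its main parts differed in order, with Fgb at 0.0272, 0.988 and 1.27 FPKM and Apoh at 0.0456, 0.343 and 0.0977. Adipocyte markers summed to 3.05, 4.02 and 5.39 FPKM, with Adipoq at most 0.187. Fabp4, another adipocyte marker, is not in that sum, since it shares its row with Fabp9, which stood at 63.4, 59.5 and 35.0 FPKM, lowest in profile 3. For B and plasma cells Ms4a1 was at 0 in all profiles, and the summed 125, 110 and 116 FPKM was nearly all Sdc1, which epithelium also makes.

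Salivary and fibroblast markers did move with the profiles. Salivary markers summed to 5.44, 9.77 and 853 FPKM, and profile 3 was the high one, as it was for Lcn2, Ltf, Cd14, Lbp, C3 and Pigr. Of the 6 salivary markers with a row of their own, 5 had a mean of 1 FPKM or more. Of these, 4 were highest in profile 3, where 36.9% of protein coding genes were. Prol1 was not, at 4.43, 9.09 and 1.50 FPKM. Amy1 shares its row with Rnpc3 and is not in the sum, and that row stood at 9.33, 9.48 and 210 FPKM. Salivary glands also make lactoferrin and PIGR, and the part of salivary RNA in these values was not tested. Fibroblast markers summed to 75.2, 160 and 253 FPKM. All 8 were lowest in profile 1, as were 8 of the 10 genes and 40.4% of protein coding genes. Of the 8 fibroblast markers, 7 had a span of 1 or more, as had 9 of the 10 genes and 3.41% of protein coding genes. In profile 3 5 of them were highest, and in profile 2 the other 3, against 36.9% and 28.2% of protein coding genes. The part of fibroblast RNA in the result was not tested. In bulk RNA, fewer cells of a type and less RNA per cell cannot be told apart.

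**Figure D5:**
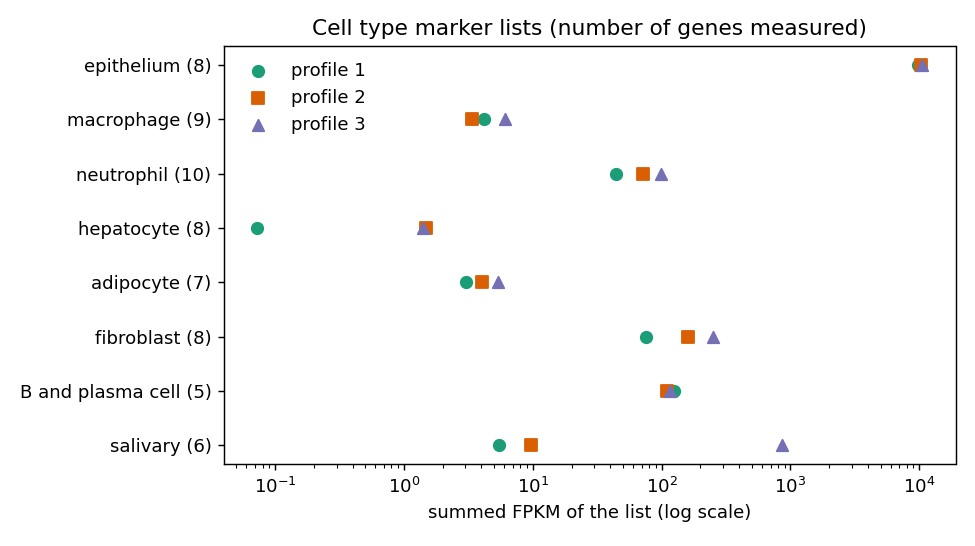
Summed FPKM (x axis, log scale) of each cell type marker list (y axis, with the number of genes measured), a point per profile. Salivary markers reach 853 FPKM in profile 3 against 5.44 and 9.77 in the others, and epithelial markers lie between 9849 and 10541 in all 3.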

How the data were processed

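RNA with polyA tails, from tumor epithelial cells enriched with a kit, was sequenced in paired reads of 100 bases, per the labels' protocols. The build was mm10 and the tools named were Cuffdiff, Cufflinks 2.1.1 and TopHat2 2.0.9, per the submitters' processing notes. Their roles and the annotation were not stated, and the kit is not said to keep strand. The authors deposited FPKM per gene, plus 1 column with a heading for total FPKM, taken here as their summary. Columns were matched by name, and 0 were left over. The table gives no counts. Among low values, 24.2% of ratios of profile 2 to profile 3 fell on 1 step, but at most 3.34% for the other pairs, so whole fragments were not recovered and no counting interval is given.

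Summed FPKM was 622789, 636842 and 621793. Rows without a symbol (1366) and rows naming several genes (514) stayed out of gene results. Of 22001 symbols on rows naming a single gene, 19293 matched protein coding genes of RefSeq GRCm38.p6. Starts are as deposited, raised by 1. With no genotype contrast there is no test. What was computed are levels, medians, ranges and spans on log2(FPKM + 1), which understates changes of low genes, and counts beside those over protein coding genes. The code that counts spans was tested on simulated data. The members, lists and motifs were chosen with earlier results of these data known. The text names the 10 members, the 4 genes with the highest mean of each list, and genes that a member binds or that define a cell type. Marker lists are given by their sums and defining genes. Some list genes are not reported here and were left out of counts and sums. Protein sequences were not used here. Alternatives were median-ratio scaling, quantile normalization, summed rows, other minimum levels, another pseudocount and leaving out each replicate number in turn. Scripts ran in Python 3.11.15 with numpy 2.4.6 and pandas 2.3.3.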

Additional observations from a re-analysis of the deposited data

Results flagged for a closer look

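Hp stood at 32.6 FPKM in the authors' deposited summary column, above all 3 profiles (5.15, 15.1 and 12.4 FPKM). It drew attention as a signal in a column that the comparisons do not use. It was the one gene of the 10 whose summary lay above every profile.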

How the results depend on the processing

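No paired analysis was possible because each Elp3 cKO column repeats the control column of its number. All 10 genes stayed at 1 FPKM or more under both scalings, summed rows and each left-out replicate. The count at a minimum of 0.5 FPKM was 10 and at 5 FPKM it was 9. The list median of 44.3 FPKM ran from 39.8 to 59.4 without each replicate. All 20 medians of single genes under the 2 scalings moved by less than 1 SD of the profiles. The Ltf median of 367 FPKM was 619 without replicate 1 and 623 without replicate 2, and that of C3, 19.4 FPKM, was 36.4 and 36.0. The count of 9 spans of 1 or more was 8 under median-ratio scaling, where Lbp had 0.99, and 8 under quantile normalization, where Cd14 was just under the mark. It was 9 with a pseudocount of 0.1. Without a replicate it ran from 3 to 8, being 3 without replicate 1, 8 without replicate 2 and 4 without replicate 3, since a span over fewer profiles can only be smaller or equal. The count of 6 genes highest in profile 3 was 6 under both scalings. It ran from 6 without replicate 1 to 10 without replicate 2, where the genes that were highest in profile 2 lose that profile. It has no value without replicate 3. Counts over 2 profiles cannot be set beside a share over 3 profiles. The share of protein coding genes highest in profile 3 was 36.6% with no filter and 35.7% at a mean of 5 FPKM or more. Depth is not known from these values, and precision is limited by having only 3 distinct profiles.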

Other observations

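The authors' deposited summary column holds more than the 3 profiles. Multiplied by 9, it ended at 4 decimals in 85.4% of 6491 rows with values from 10 to 1000 FPKM, while each other multiplier tried from 2 to 12 gave 28.5% or less. A mean over 9 values would do so. The values that follow rest on that reading, with each profile counted 2 times as in the table. No label states it, and which samples the remaining 3 values come from is not known. Over 10447 protein coding genes, the mean of the 3 values left was 0.95 times the mean of the profiles at the median, and 0.487 to 2.08 times between the 5th and 95th percentiles. Elp3 had a ratio of 1.11.

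Read in this way, Saa1 and Saa2 stood lowest relative to the profiles. The values left averaged 3.79 FPKM for Saa1 against a mean of 229 in the profiles, and 2.25 against 124 for Saa2. At most 0.201% of protein coding genes had a ratio as low as either. Saa3, in the same cluster, had 14.3 FPKM against 29.0, so the cluster did not differ by 1 factor. Lcn2 had 547 FPKM against 3507, and its summary of 2520 FPKM lay below all 3 profiles, the one gene of the 10 for which that held. Pigr had 0.824 against 3.23, Lbp 14.4 against 36.1 and Ltf 255 against 535. In the other direction, Hp had 76.0 FPKM against 10.9, a ratio of 6.97 that 0.459% of genes reached or passed. Cd14 had 154 against 69.2 and C3 49.6 against 30.5. Hp thus parted from the Saa genes, whose order it shared over the 3 profiles. These are single sums with no spread, and no test was made.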
